A study of Mus musculus with 4 samples.

Results

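The mitochondrial carrier family of the mouse heart was examined in left ventricle after myocardial infarction, taking every gene whose symbol is Slc25a followed by a number. The rule found 46 such genes among the 17550 genes with a read in any library. Of these, 39 reached 1 RPKM (reads per kilobase of gene length, scaled to the library's uniquely assigned reads) in at least 1 library, and the other 7 are only counted. RNA of 8-week-old C57BL/6 mice was sequenced from Illumina libraries, 3 days after an induced infarction. The samples form 4 groups of 1 library each: infarcted and non-infarcted left ventricle of mice labelled Neil3-/-, and the same tissues of wild-type mice, infarcted and non-infarcted. All 4 groups come from operated mice, and no unoperated heart was analysed here. Whether a library is 1 mouse or a pool is not stated in the labels, nor whether infarcted and non-infarcted pieces share a mouse, nor how the Neil3 allele was made. With 1 library per group, no difference below has a replicate check, and the 95% intervals in parentheses cover counting error only.

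Carriers of this family sit mostly in the mitochondrial inner membrane, which is otherwise closed to metabolites. They exchange ADP for ATP, bring in phosphate, and move fatty acyl groups, carboxylates, amino acids and cofactors between cytosol and matrix. Heart muscle, whose contraction depends on mitochondrial ATP, is rich in the adenine nucleotide and phosphate carriers.

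The libraries held 18.2 M and 14.3 M uniquely assigned reads in infarcted and non-infarcted tissue labelled Neil3-/-, and 17.3 M and 14.9 M in infarcted and non-infarcted wild-type tissue. Neil3 itself was at 18.5 and 12.05 RPKM in infarcted and non-infarcted tissue labelled Neil3-/-, against 3.95 and 1.83 RPKM in infarcted and non-infarcted wild-type tissue. The reads therefore go against the genotype label at the level of the whole gene, although the deleted part is not named, and "labelled Neil3-/-" is used throughout. The same doubt holds for the libraries labelled wild type, and "wild type" likewise gives the label alone. All 14 cardiomyocyte markers had reads in all 4 libraries. Their summed level was 13086.5 and 37920 RPKM in infarcted and non-infarcted tissue labelled Neil3-/-, and 19701 and 39843 RPKM in infarcted and non-infarcted wild-type tissue.

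As a whole the family was less abundant in infarcted tissue, and most of that difference lay in its most abundant members. Its summed level was 1803 RPKM in infarcted and 4105 RPKM in non-infarcted tissue labelled Neil3-/-, and 2329 RPKM in infarcted and 4376 RPKM in non-infarcted wild-type tissue. In reads it took 0.288% and 0.595% of the unique reads of infarcted and non-infarcted tissue labelled Neil3-/-, and 0.353% and 0.624% of those of infarcted and non-infarcted wild-type tissue. Slc25a4, the adenine nucleotide translocase of heart and skeletal muscle, supplied 38.5% and 56.8% of that sum in infarcted and non-infarcted tissue labelled Neil3-/-, and 47.7% and 59.3% in infarcted and non-infarcted wild-type tissue. Slc25a4, the phosphate carrier Slc25a3 and the broadly expressed translocase Slc25a5 held the top 3 places in every library and together made up 72.0% to 82.6% of the sum. All other members summed to 504.5 and 796 RPKM in infarcted and non-infarcted tissue labelled Neil3-/-, and to 534 and 763 RPKM in infarcted and non-infarcted wild-type tissue.

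**Figure D1:**
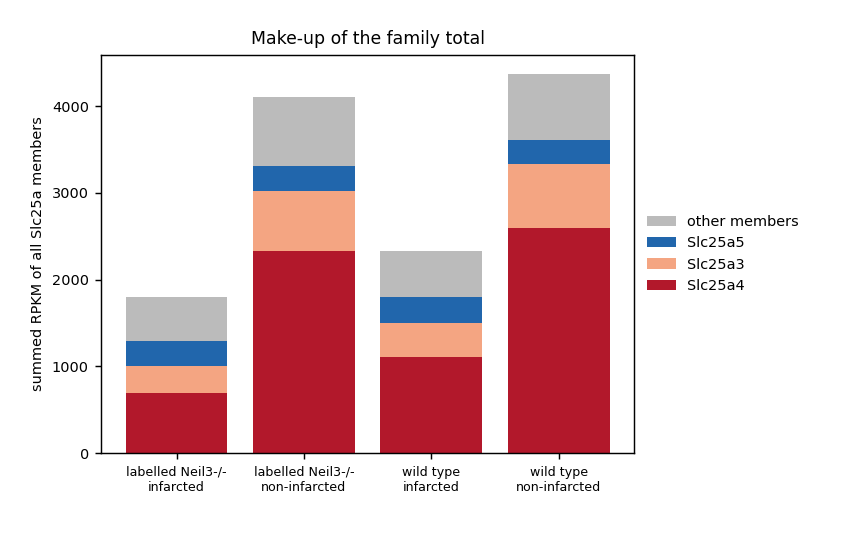
Summed RPKM of all Slc25a members in each library (bars from 0), split into Slc25a4, Slc25a3, Slc25a5 and all other members. The Slc25a5 part is 284 to 300 RPKM in every bar, while the Slc25a4 part is 694 RPKM in infarcted tissue labelled Neil3-/- and 2594 RPKM in non-infarcted wild-type tissue.

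Levels within the family spanned more than 3 orders of magnitude. Behind the top 3 came Slc25a11, Slc25a39, Slc25a12 and Slc25a20, which held places 4 to 7 in all 4 libraries in slightly different order. At the low end, Slc25a43 and Slc25a14, at no more than 1.53 and 1.44 RPKM, passed the 1 RPKM limit, whereas Slc25a18 reached no more than 0.638 RPKM and did not. Of the 7 members under the limit, 3 had no read in at least 1 library. Members at 1 RPKM or more had 9 reads or more in every library, and the median share of a gene's length covered by reads was 94.6%.

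**Figure D2:**
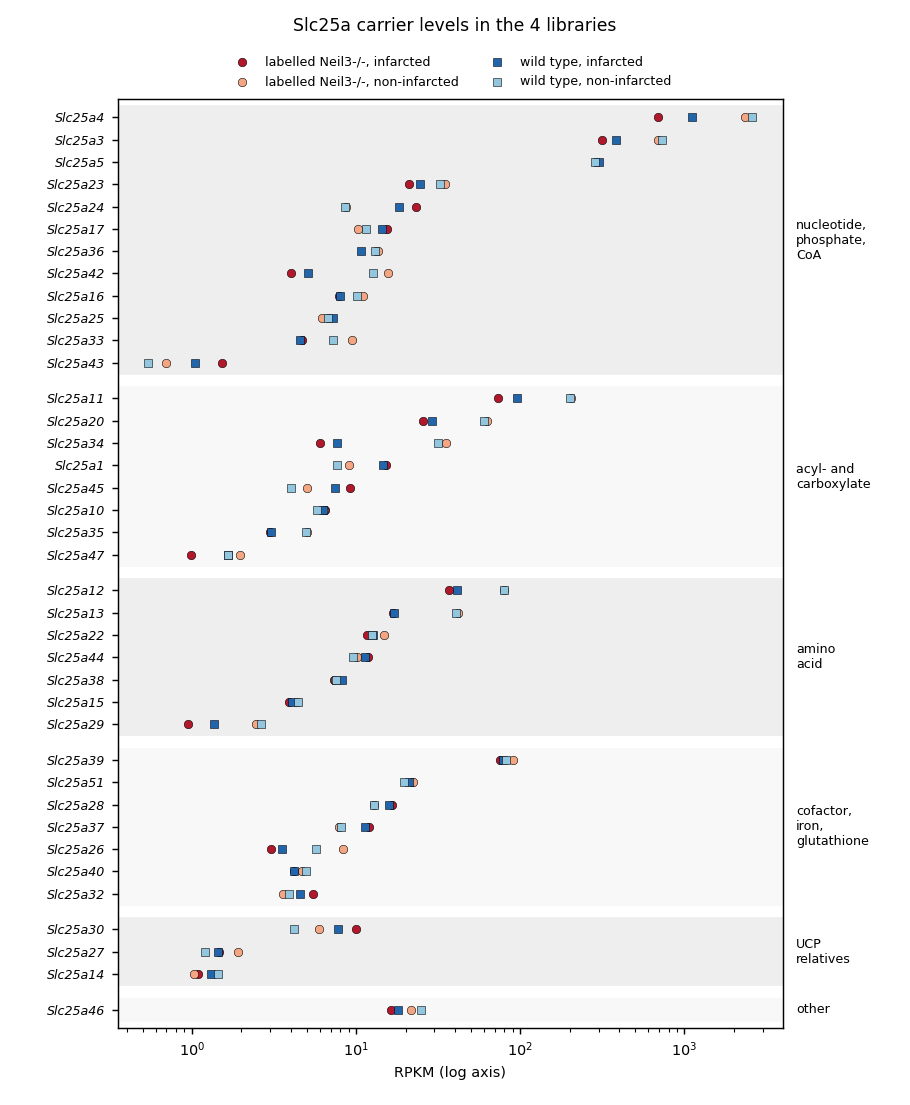
RPKM (log axis) of 38 members at 1 RPKM or more, grouped by role and ordered by mean level within a role, with 1 point for each of the 4 libraries. For Slc25a4, Slc25a11 and Slc25a34 both infarcted libraries lie to the left of both non-infarcted ones, and for Slc25a24 both lie to the right.

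The infarcted libraries were first set against the non-infarcted ones. More carriers were lower than higher in infarcted tissue. Those at least 2-fold lower in both genotypes included carriers that serve ATP export, coenzyme A supply, fatty acid entry and the malate-aspartate shuttle. As deposited, the phosphate carrier Slc25a3 was at least 2-fold lower only under the Neil3-/- label. Differences were taken as log2 ratios of (RPKM + 1), which understate the ratios of genes with low levels, and genes at 1 RPKM or more in a library compared were kept. In the libraries labelled Neil3-/-, 9 of 39 members were at least 2-fold lower in infarcted tissue (23.1%), where 6.07% of all 12563 genes compared were. One member (2.56%) was at least 2-fold higher, where 8.2% of all genes were. In wild type, 6 of 39 members were at least 2-fold lower (15.4%), against 3.6% of 12515 genes, and 1 was at least 2-fold higher, against 6.21% of all genes. The 6 members lower in wild type were also among the 9 lower in the libraries labelled Neil3-/-, but this overlap was not counted over all genes. In the libraries labelled Neil3-/-, the interval of the RPKM ratio lay below 1 for 19 of 39 members (48.7%) and above 1 for 10 (25.6%), where it lay below 1 for 24.1% and above 1 for 53.6% of all genes compared. In wild type it lay below 1 for 17 members (43.6%) and above 1 for 9 (23.1%), where it lay below 1 for 22% and above 1 for 51.8% of all genes.

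The median log2 ratio of the members was -0.23 in the libraries labelled Neil3-/- and -0.08 in wild type, while the median of all genes was 0.24 and 0.21. The members' median thus differed from that of all genes by -0.47 on the log2 scale in the libraries labelled Neil3-/- and by -0.29 in wild type. TMM scaling, which corrects for a few genes taking many reads, moved the median of all genes by -0.21 in the libraries labelled Neil3-/- and -0.20 in wild type, and the share of higher genes among all those past 2-fold to 34.1% and 37.2%, against 57.5% and 63.3% as deposited. Under TMM scaling, 1 member was at least 2-fold higher and 10 lower in the libraries labelled Neil3-/-, where 4.37% of all genes were higher and 8.45% lower. In wild type 0 members were higher and 8 lower under it, where 3.64% of all genes were higher and 6.15% lower. Of the 39 members, 21 lay below 0 in both genotypes (53.8%), 13 above 0 in both (33.3%) and 5 had opposite signs, while 27.9% of all genes lay below 0 in both and 61.6% above 0 in both. The signs of Slc25a5, Slc25a10 and Slc25a25 turned under both TMM and median-of-ratios scaling in both genotypes, as did those of Slc25a44 and Slc25a14 in the libraries labelled Neil3-/- and of Slc25a22, Slc25a32, Slc25a38 and Slc25a51 in wild type.

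Cell markers moved in the same comparisons. All 14 cardiomyocyte markers lay below 0, with medians of -1.46 in the libraries labelled Neil3-/- and -1.20 in wild type. All 9 macrophage markers found lay above 0, with medians of 1.32 and 1.5 in the libraries labelled Neil3-/- and in wild type, and all 7 neutrophil markers found were at least 2-fold higher in both. Of 4 atrial markers, 3 were at least 2-fold lower in infarcted tissue in both genotypes, with medians of -2.03 in the libraries labelled Neil3-/- and -3.73 in wild type, and Sln was at 0 in both infarcted libraries. The summed macrophage level was 1546 and 687 RPKM in infarcted and non-infarcted tissue labelled Neil3-/-, and 1117 and 418 RPKM in infarcted and non-infarcted wild-type tissue. Fewer cardiomyocytes and less carrier RNA per cardiomyocyte cannot be told apart in bulk tissue, and the part of cell makeup in the carrier differences was not tested. In the libraries labelled Neil3-/-, 4 members (Slc25a4, Slc25a11, Slc25a34 and Slc25a42) had a lower log2 ratio than the median cardiomyocyte marker. Of these, Slc25a11 was barely lower, at -1.467 against -1.463. In wild type, 2 members did (Slc25a4 and Slc25a34), and Slc25a13 narrowly did not, at -1.194 against -1.198. How many of all genes lay below these medians was not counted.

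**Figure D3:**
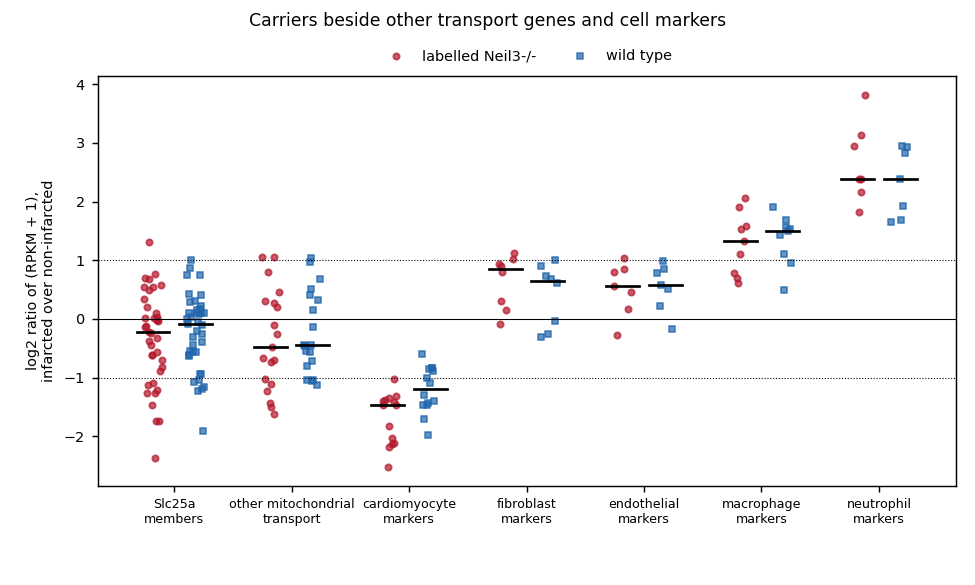
Log2 ratio of (RPKM + 1), infarcted over non-infarcted, for each Slc25a member at 1 RPKM or more and for genes of other lists, with libraries labelled Neil3-/- left of wild type (points are genes, black bars medians, dotted lines 2-fold). The carriers spread from -2.36 to 1.31 in the libraries labelled Neil3-/-, overlapping the cardiomyocyte markers only at their lower end.

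Among nucleotide, phosphate and coenzyme A carriers, 12 members were compared. In the libraries labelled Neil3-/-, 3 were at least 2-fold lower (25%, against 6.07% of all genes) and 1 higher (8.33%, against 8.2%). In wild type, 2 were lower (16.7%, against 3.6% of all genes) and 1 higher (8.33%, against 6.21%). The shares of higher members were thus near those of all genes. Slc25a4 (Entrez 11739) was at 694 RPKM in infarcted and 2332 RPKM in non-infarcted tissue labelled Neil3-/-, and at 1109.95 RPKM in infarcted and 2594 RPKM in non-infarcted wild-type tissue. It was 3.36-fold lower (3.30 to 3.42) in infarcted tissue labelled Neil3-/- and 2.34-fold lower (2.30 to 2.38) in wild type, from 14426 reads or more in every library. Slc25a5 (Entrez 11740), the translocase form common to many cell types, hardly differed, at 290 and 288 RPKM in infarcted and non-infarcted tissue labelled Neil3-/-, and 300.1 and 284 RPKM in infarcted and non-infarcted wild-type tissue. The 2 translocases were therefore much closer to each other in infarcted tissue: per gene length, Slc25a4 stood 2.39-fold above Slc25a5 (2.32 to 2.46) in infarcted and 8.10-fold above it (7.87 to 8.34) in non-infarcted tissue labelled Neil3-/-. In wild type the ratio was 3.70 (3.60 to 3.80) in infarcted and 9.15 (8.89 to 9.41) in non-infarcted tissue. Such a ratio within a library does not depend on library scaling, but reads shared by close copies of these genes would not be counted as unique, which makes the level of each copy uncertain.

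Slc25a3 (Entrez 18674), which carries phosphate for ATP synthesis, was at 315 and 690 RPKM in infarcted and non-infarcted tissue labelled Neil3-/-, and 385 and 735 RPKM in infarcted and non-infarcted wild-type tissue. Infarcted tissue was lower in both genotypes, by 2.19-fold (2.13 to 2.25) in the libraries labelled Neil3-/- and 1.91-fold (1.86 to 1.96) in wild type, where it missed the 2-fold limit at a log2 ratio of -0.93. Under TMM scaling the wild-type log2 ratio of Slc25a3 was -1.15, past that limit. Slc25a42 (Entrez 73095), which brings coenzyme A into the matrix, was at 3.99 and 15.6 RPKM in infarcted and non-infarcted tissue labelled Neil3-/-, and 5.10 and 12.7 RPKM in infarcted and non-infarcted wild-type tissue. That gene was 3.92-fold lower (3.37 to 4.57) in infarcted tissue labelled Neil3-/- and 2.49-fold lower (2.16 to 2.88) in wild type, with the infarcted libraries well below both others.

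The calcium-regulated carriers that exchange ATP-Mg for phosphate went different ways. Slc25a24 (Entrez 229731) was the single member at least 2-fold higher in infarcted tissue, at 23.0 and 8.67 RPKM in infarcted and non-infarcted tissue labelled Neil3-/-, and 18.3 and 8.55 RPKM in infarcted and non-infarcted wild-type tissue. It was 2.66-fold higher (2.38 to 2.97) under the Neil3-/- label and 2.14-fold higher (1.91 to 2.39) in wild type, where it fell short of 2-fold under TMM scaling. Its relative Slc25a23 (Entrez 66972) was lower, at 21.1 and 34.9 RPKM in infarcted and non-infarcted tissue labelled Neil3-/-, and 24.6 and 32.6 RPKM in infarcted and non-infarcted wild-type tissue. Per gene length, Slc25a23 stood at 0.914 times Slc25a24 (0.847 to 0.987) in infarcted and 4.02 times (3.61 to 4.49) in non-infarcted tissue labelled Neil3-/-, and at 1.35 times (1.25 to 1.46) in infarcted and 3.81 times (3.43 to 4.25) in non-infarcted wild-type tissue. The third relative, Slc25a25, was at 6.21 to 7.25 RPKM in all 4 libraries. Medians of several marker lists also lay above 0 in infarcted tissue. In the libraries labelled Neil3-/- they were 1.32 for macrophage, 2.39 for neutrophil, 0.85 for fibroblast, 0.56 for endothelial and 0.79 for erythroid markers. In wild type they were 1.5 for macrophage, 2.39 for neutrophil, 0.65 for fibroblast, 0.58 for endothelial and 0.89 for erythroid markers. Of the 8 fibroblast markers, 1 lay below 0 in the libraries labelled Neil3-/- and 3 did in wild type. The part of these cell types in the level of Slc25a24 was not tested.

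Of the other carriers in this group, Slc25a33, a pyrimidine nucleotide carrier, was 2.02-fold lower (1.65 to 2.48) in infarcted tissue labelled Neil3-/- by the plain RPKM ratio and 1.57-fold lower (1.27 to 1.96) in wild type. Its relative Slc25a36 was at 10.8 to 13.5 RPKM throughout. The peroxisomal carrier Slc25a17 was 1.5-fold higher (1.28 to 1.76) in infarcted tissue labelled Neil3-/- and 1.25-fold higher (1.07 to 1.46) in wild type. Its wild-type log2 ratio of 0.30 became 0.09 under TMM scaling. Slc25a43, from 31 reads or fewer, was 2.21-fold higher (1.08 to 4.88) under the Neil3-/- label, and in wild type its interval spanned 1. Slc25a16 stood 1.41-fold (1.24 to 1.61) and 1.26-fold (1.11 to 1.44) lower in infarcted tissue in the libraries labelled Neil3-/- and in wild type.

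Carriers of acylcarnitine and carboxylates, with relatives of less settled substrate, held 3 of 8 members at least 2-fold lower in each genotype (37.5%). Of all genes, 6.07% were lower in the libraries labelled Neil3-/- and 3.6% in wild type. Slc25a34 (Entrez 384071), a carrier without an established substrate, had the lowest log2 ratio of the family in both genotypes, -2.36 in the libraries labelled Neil3-/- and -1.90 in wild type. It was at 6.04 and 35.3 RPKM in infarcted and non-infarcted tissue labelled Neil3-/-, and 7.64 and 31.4 RPKM in infarcted and non-infarcted wild-type tissue. These levels rest on 295 and 1352 reads in infarcted and non-infarcted tissue labelled Neil3-/-, and 354 and 1253 reads in infarcted and non-infarcted wild-type tissue. Infarcted tissue was 5.84-fold lower (5.14 to 6.64) under the Neil3-/- label and 4.10-fold lower (3.64 to 4.63) in wild type. Among the 39 members it held place 27 in infarcted against 9 in non-infarcted tissue labelled Neil3-/-, and place 24 in infarcted against 10 in non-infarcted wild-type tissue. Its nearest relative Slc25a35, at 2.98 to 5.06 RPKM, stood 1.70-fold (1.30 to 2.23) and 1.62-fold (1.24 to 2.12) lower under the Neil3-/- label and in wild type.

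Promoters of the members at either end of the infarct ranking and of the most abundant member are shown so that the sequence at their starts can be read beside their levels. Each window runs from 250 bases before to 50 bases after a RefSeq gene start on build GRCm38.p6, which is not the build of the expression files. Capitals mark AAGGTCA or its reverse complement TGACCTT, the core motif read by estrogen-related receptors, which are known activators of mitochondrial genes. The windows lie at chr4:141623785-141624084 (minus strand) for Slc25a34, chr8:46211013-46211312 (minus strand) for Slc25a4 and chr3:109122899-109123198 (plus strand) for Slc25a24.
Slc25a34: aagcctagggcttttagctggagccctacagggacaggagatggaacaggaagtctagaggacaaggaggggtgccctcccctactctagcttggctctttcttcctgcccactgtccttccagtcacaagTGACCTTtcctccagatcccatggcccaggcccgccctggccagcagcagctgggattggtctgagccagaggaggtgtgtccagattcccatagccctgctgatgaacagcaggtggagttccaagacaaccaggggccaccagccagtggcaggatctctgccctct
Slc25a4: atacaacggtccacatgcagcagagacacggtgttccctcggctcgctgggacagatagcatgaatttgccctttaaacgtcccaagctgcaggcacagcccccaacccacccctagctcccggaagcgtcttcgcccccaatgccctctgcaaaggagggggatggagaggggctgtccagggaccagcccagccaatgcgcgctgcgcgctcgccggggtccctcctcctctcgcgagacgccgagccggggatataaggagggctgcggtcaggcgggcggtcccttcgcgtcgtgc
Slc25a24: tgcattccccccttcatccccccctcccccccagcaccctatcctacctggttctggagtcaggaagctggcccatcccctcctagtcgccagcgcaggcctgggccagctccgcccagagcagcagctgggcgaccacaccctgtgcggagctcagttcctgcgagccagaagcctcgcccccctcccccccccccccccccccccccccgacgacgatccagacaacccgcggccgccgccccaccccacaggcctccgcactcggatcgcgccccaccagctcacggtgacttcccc
This motif was found once in the Slc25a34 window, 119 bases before the start, and in no window of the other 34 members with a RefSeq promoter. Of all 27025 genes with such windows, 5.38% held it on either strand. Other motifs searched on both strands were the NRF1 motif, in 0 of 35 members and 1.07% of all genes, TGACGTCA (the cyclic AMP response element), in 2 of 35 members and 2.03% of all genes, and CACGTG (the E-box), in 7 of 35 members and 8.09% of all genes. The windows shown held no other searched motif, and a match of letters does not show binding.

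Slc25a11 (Entrez 67863), which exchanges oxoglutarate for malate and is part of the malate-aspartate shuttle, was at 73.1 and 204 RPKM in infarcted and non-infarcted tissue labelled Neil3-/-, and 95.8 and 202 RPKM in infarcted and non-infarcted wild-type tissue. It was 2.79-fold lower (2.65 to 2.93) in infarcted tissue labelled Neil3-/- and 2.11-fold lower (2.02 to 2.21) in wild type. Slc25a20 (Entrez 57279), the carnitine-acylcarnitine carrier through which long-chain fatty acids reach oxidation, was at 25.6 and 63.1 RPKM in infarcted and non-infarcted tissue labelled Neil3-/-, and 28.9 and 60.2 RPKM in infarcted and non-infarcted wild-type tissue. Its infarcted level was 2.47-fold lower (2.27 to 2.68) under the Neil3-/- label and 2.08-fold lower (1.92 to 2.26) in wild type, just past the limit at a log2 ratio of -1.03.

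Within the same group, some carriers were higher in infarcted tissue without passing 2-fold. The citrate carrier Slc25a1, which exports citrate for lipid synthesis, was at 15.1 and 9.0 RPKM in infarcted and non-infarcted tissue labelled Neil3-/-, and 14.6 and 7.60 RPKM in infarcted and non-infarcted wild-type tissue, 1.68-fold (1.43 to 1.98) and 1.92-fold (1.62 to 2.29) higher under the Neil3-/- label and in wild type. Slc25a45, related in sequence to Slc25a20, stood 1.85-fold (1.5 to 2.28) and 1.86-fold (1.48 to 2.36) higher under the Neil3-/- label and in wild type. The dicarboxylate carrier Slc25a10 lay at 5.74 to 6.43 RPKM in all 4 libraries. Slc25a47 was 1.98-fold lower (1.21 to 3.27) in infarcted tissue labelled Neil3-/-, from 29 and 45 reads, while in wild type its interval spanned 1.

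In infarcted tissue labelled Neil3-/-, 2 of 7 amino acid carriers compared were at least 2-fold lower (28.6%, against 6.07% of all genes). In wild type 1 was (14.3%, against 3.6% of all genes). The carriers past the limit were the aspartate-glutamate carriers of the malate-aspartate shuttle, Slc25a12 and Slc25a13, with Slc25a12 short of 2-fold in wild type. Under TMM scaling the wild-type log2 ratio of Slc25a12 was -1.15, past 2-fold. Slc25a12 (Entrez 78830), the form that predominates in heart, was at 37.0 and 79.6 RPKM in infarcted and non-infarcted tissue labelled Neil3-/-, and 41.4 and 79.8 RPKM in infarcted and non-infarcted wild-type tissue. Slc25a13 (Entrez 50799), also called citrin, was at 16.8 and 41.6 RPKM in infarcted and non-infarcted tissue labelled Neil3-/-, and 17.1 and 40.4 RPKM in infarcted and non-infarcted wild-type tissue. Slc25a12 stood 2.15-fold (2.03 to 2.28) and 1.93-fold (1.82 to 2.04) lower and Slc25a13 2.48-fold (2.29 to 2.68) and 2.36-fold (2.18 to 2.56) lower under the Neil3-/- label and in wild type. Slc25a12 stayed 1.91 to 2.42 times Slc25a13 per gene length in every library, unlike the translocase pair.

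None of the remaining amino acid carriers was past 2-fold on the scale of (RPKM + 1). Slc25a29, a carrier of basic amino acids at no more than 2.63 RPKM, was 2.58-fold lower (1.69 to 4.02) in infarcted tissue labelled Neil3-/- and 1.94-fold lower (1.33 to 2.86) in wild type by the plain RPKM ratio, and was not counted at 2-fold because of the added 1 RPKM. The branched-chain amino acid carrier Slc25a44 stood 1.17-fold (1.04 to 1.31) and 1.19-fold (1.06 to 1.33) higher under the Neil3-/- label and in wild type. Its log2 ratios of 0.20 and 0.22 lay near the medians of all genes, 0.24 and 0.21. Intervals of the ornithine carrier Slc25a15 and the glycine carrier Slc25a38 spanned 1 in both genotypes. For the glutamate carrier Slc25a22, infarcted tissue was 1.27-fold lower (1.14 to 1.43) under the Neil3-/- label, and its wild-type interval spanned 1.

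Of 8 cofactor, iron and glutathione carriers, 1 was at least 2-fold lower in infarcted tissue labelled Neil3-/- (12.5%, against 6.07% of all genes). None was past 2-fold in wild type, where 3.6% of all genes were lower and 6.21% higher. Slc25a26 (Entrez 67582), which imports S-adenosylmethionine, was at 3.01 and 8.29 RPKM in infarcted and non-infarcted tissue labelled Neil3-/-, and 3.54 and 5.73 RPKM in infarcted and non-infarcted wild-type tissue. It was 2.75-fold lower (2.18 to 3.5) in infarcted tissue labelled Neil3-/- and 1.62-fold lower (1.27 to 2.07) in wild type. The glutathione carrier Slc25a39 (Entrez 68066) was at 75.6 and 89.9 RPKM in infarcted and non-infarcted tissue labelled Neil3-/-, and 78.5 and 81.5 RPKM in infarcted and non-infarcted wild-type tissue, and its relative Slc25a40 at 4.17 to 4.97 RPKM. The NAD carrier Slc25a51 (Entrez 230125) was at 21.8 and 22.1 RPKM in infarcted and non-infarcted tissue labelled Neil3-/-, and 20.9 and 19.5 RPKM in infarcted and non-infarcted wild-type tissue.

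Both iron carriers, the mitoferrins, were higher in infarcted tissue as deposited. Slc25a37, mitoferrin 1, best known from red cell precursors, stood 1.52-fold (1.36 to 1.71) and 1.39-fold (1.24 to 1.56) higher under the Neil3-/- label and in wild type, and Slc25a28, mitoferrin 2, stood 1.29-fold (1.11 to 1.5) and 1.24-fold (1.07 to 1.44) higher. For Slc25a28 the log2 ratios of 0.34 and 0.29 lay near the medians of all genes, 0.24 and 0.21. Its wild-type log2 ratio was 0.08 under TMM scaling. The summed level of 6 erythroid genes was 297 and 155 RPKM in infarcted and non-infarcted tissue labelled Neil3-/-, and 334 and 177 RPKM in infarcted and non-infarcted wild-type tissue, and its part in the mitoferrin levels was not tested. Slc25a32, which carries folate and FAD, was 1.51-fold higher (1.24 to 1.85) in infarcted tissue labelled Neil3-/-, and its wild-type interval spanned 1.

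Relatives of the uncoupling proteins and the outer membrane member completed the family. Slc25a30 was at 10.02 and 5.91 RPKM in infarcted and non-infarcted tissue labelled Neil3-/-, and 7.74 and 4.17 RPKM in infarcted and non-infarcted wild-type tissue, 1.70-fold (1.39 to 2.08) and 1.86-fold (1.47 to 2.36) higher under the Neil3-/- label and in wild type. Slc25a14 and Slc25a27 had 26 to 73 reads per library, and their intervals spanned 1 in both genotypes. Slc25a46, which sits in the outer membrane and takes part in mitochondrial fusion and fission, stood 1.31-fold (1.22 to 1.42) and 1.38-fold (1.28 to 1.48) lower under the Neil3-/- label and in wild type.

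**Figure D4:**
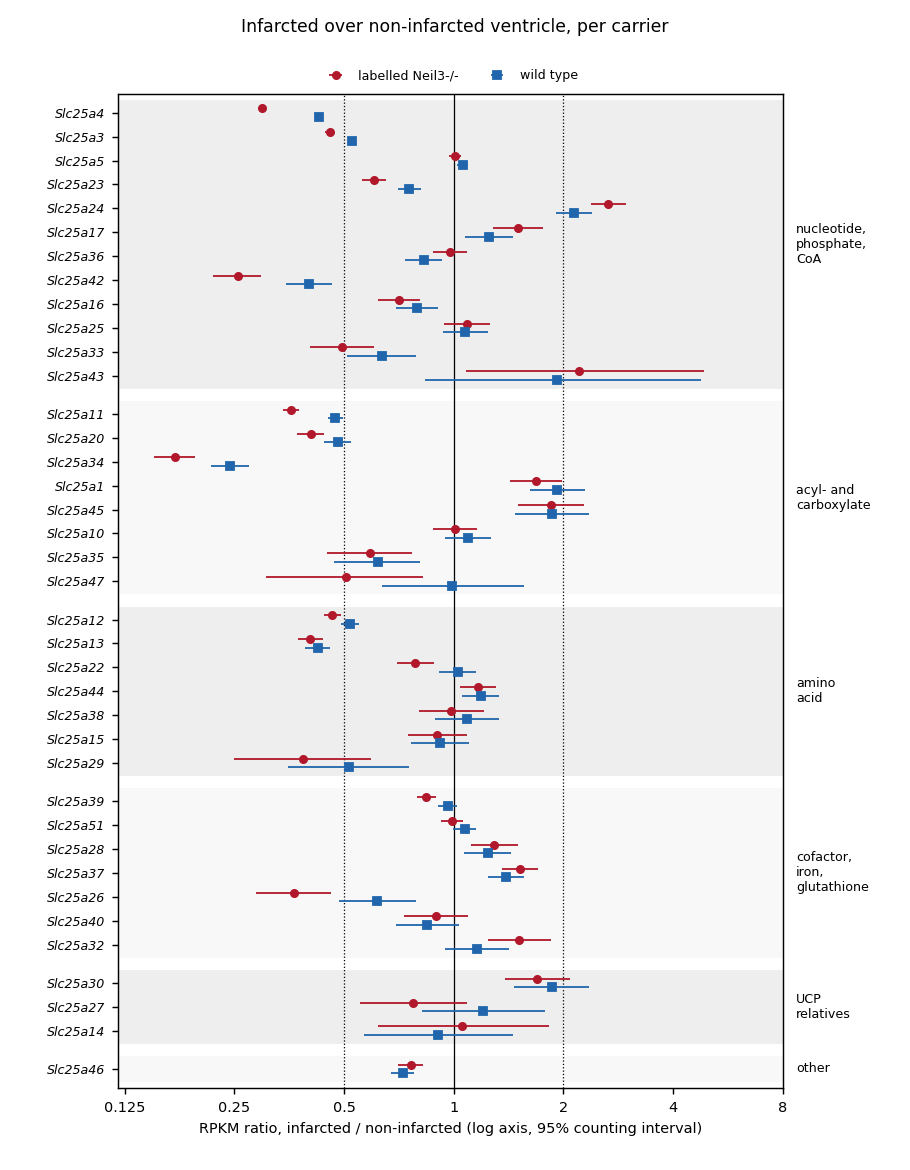
RPKM ratio (log axis) of infarcted over non-infarcted tissue for 38 members at 1 RPKM or more, by role, with 95% counting intervals, the library pair labelled Neil3-/- above the wild-type pair (solid line, equal levels; dotted lines, 2-fold). Slc25a34, Slc25a42, Slc25a4, Slc25a11, Slc25a20 and Slc25a13 lie left of 0.5 in both genotypes and Slc25a24 right of 2 in both.

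Family members that carry other symbols showed both directions as well. Ucp2, the uncoupling protein relative common in immune cells, was at 102 and 46.0 RPKM in infarcted and non-infarcted tissue labelled Neil3-/-, and 75.4 and 36.5 RPKM in infarcted and non-infarcted wild-type tissue, 2.23-fold (2.13 to 2.33) and 2.07-fold (1.97 to 2.17) higher. Ucp3, its muscle relative, was at 1.95 and 11.3 RPKM in infarcted and non-infarcted tissue labelled Neil3-/-, and 1.04 and 5.35 RPKM in infarcted and non-infarcted wild-type tissue, 5.80-fold (4.59 to 7.40) and 5.14-fold (3.69 to 7.30) lower. Mtch1 and Mtch2, carrier-like proteins of the outer membrane, were within 2-fold in every comparison. Of 19 other mitochondrial transport genes found, 6 were at least 2-fold lower (31.6%) and 2 higher (10.5%) in infarcted tissue labelled Neil3-/-. Of all genes, 6.07% were lower and 8.2% higher there. In wild type 4 were lower (21.1%) and 1 higher (5.26%), where 3.6% of all genes were lower and 6.21% higher. The medians of these transport genes were -0.47 in the libraries labelled Neil3-/- and -0.45 in wild type. The pyruvate carrier subunits Mpc1 and Mpc2 stood 2.34-fold (2.23 to 2.46) and 2.75-fold (2.50 to 3.02) lower in infarcted tissue labelled Neil3-/-, and 2.09-fold (1.99 to 2.19) and 2.06-fold (1.90 to 2.24) lower in wild type. Cpt2 and Cpt1b, which act on either side of Slc25a20 in fatty acid entry, stood 3.16-fold (2.94 to 3.39) and 3.41-fold (2.86 to 4.09) lower in the libraries labelled Neil3-/-, and 2.23-fold (2.07 to 2.40) and 2.29-fold (1.94 to 2.71) lower in wild type. Cpt1a went the other way. It stood 1.24-fold (1.16 to 1.33) and 1.11-fold (1.04 to 1.20) higher under the Neil3-/- label and in wild type. Its deposited RPKM was above that of Cpt1b in every library. Reads shared with other genes would not be counted as unique, so the order of these levels is uncertain. The serine carrier Sfxn1 stood 2.20-fold (1.94 to 2.50) and 2.18-fold (1.92 to 2.48) higher under the Neil3-/- label and in wild type. Its relative Sfxn5 stood 2.69-fold (2.12 to 3.44) and 2.45-fold (1.95 to 3.10) higher by the plain RPKM ratio. In wild type Sfxn5 was not counted at 2-fold, at a log2 ratio of (RPKM + 1) of 0.96. The outer membrane channel Vdac1 stood 2.04-fold (1.97 to 2.10) and 1.75-fold (1.70 to 1.81) lower, and the transporter Abcb8 2.24-fold (2.04 to 2.47) and 1.69-fold (1.54 to 1.86) lower.

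Libraries labelled Neil3-/- were next set against wild type. No member was 2-fold apart in either direction in infarcted tissue, where 0.249% of all 12464 genes were higher past that limit and 0.241% were lower. The same held in non-infarcted tissue, where 0.254% of all 12226 genes were higher past the limit and 0.188% were lower. In infarcted tissue the interval of the RPKM ratio lay below 1 for 10 of 39 members (25.6%) and above 1 for 5 (12.8%), where it lay below 1 for 19.4% and above 1 for 25.4% of all genes. In non-infarcted tissue it lay below 1 for 3 members (7.69%) and above 1 for 9 (23.1%), where it lay below 1 for 10.8% and above 1 for 15.2% of all genes. The members' median log2 ratio was -0.04 in infarcted and 0.04 in non-infarcted tissue.

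In infarcted tissue, the largest shortfall on the log2 scale in the library labelled Neil3-/- was that of Slc25a4, which was 1.60-fold lower (1.57 to 1.63) than in wild type at a log2 ratio of -0.68. Slc25a11 was 1.31-fold (1.24 to 1.39), Slc25a42 1.28-fold (1.07 to 1.53), Slc25a34 1.27-fold (1.08 to 1.48) and Slc25a3 1.22-fold (1.19 to 1.26) lower. From 29 and 46 reads, Slc25a47 was 1.67-fold lower (1.03 to 2.76) by the plain RPKM ratio. On the other side, Slc25a30 was 1.29-fold (1.09 to 1.54), Slc25a24 1.26-fold (1.16 to 1.37), Slc25a45 1.24-fold (1.05 to 1.48) and Slc25a36 1.23-fold (1.10 to 1.38) higher. In the same comparison all 14 cardiomyocyte markers lay below 0 with a median of -0.59, and all 9 macrophage and 8 fibroblast markers above 0 with medians of 0.37 and 0.61. Their part in the carrier differences was not tested.

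In non-infarcted tissue, Slc25a4 was 1.11-fold (1.10 to 1.13), Slc25a3 1.07-fold (1.04 to 1.09) and Slc25a46 1.16-fold (1.07 to 1.24) lower in the library labelled Neil3-/-. Higher in that library were Slc25a27 by 1.59-fold (1.09 to 2.33), Slc25a26 by 1.45-fold (1.18 to 1.78), Slc25a30 by 1.42-fold (1.09 to 1.84), Slc25a33 by 1.32-fold (1.09 to 1.59) and Slc25a42 by 1.23-fold (1.10 to 1.37). All 8 acylcarnitine and carboxylate carriers compared lay above 0, as did 53.7% of all genes, by 0.01 to 0.27 on the log2 scale, but the intervals of 7 of them spanned 1 and only that of Slc25a34, 1.12-fold higher (1.04 to 1.22), did not. The sign of Slc25a11 turned under both TMM and median-of-ratios scaling. Slc25a42 and Slc25a34 were thus higher than wild type in the non-infarcted and lower in the infarcted library labelled Neil3-/-, with no interval spanning 1. Slc25a26, Slc25a22 and Slc25a39 had the same directions, but their intervals in infarcted tissue spanned 1. In non-infarcted tissue Slc25a22 was 1.20-fold (1.06 to 1.35) and Slc25a39 1.10-fold (1.04 to 1.17) higher under the Neil3-/- label. Outside the Slc25a symbols, Ucp3 was higher under the Neil3-/- label. By the plain RPKM ratio it stood 2.12-fold (1.78 to 2.53) higher in non-infarcted and 1.88-fold (1.29 to 2.76) higher in infarcted tissue. Ucp3 was not counted at 2-fold, at log2 ratios of (RPKM + 1) of 0.96 in non-infarcted and 0.53 in infarcted tissue. Cardiomyocyte markers had a median of -0.08 between the non-infarcted libraries and macrophage markers one of 0.29. Atrial markers differed more, with 3 of 4 at least 2-fold lower in the non-infarcted library labelled Neil3-/- and a median of -1.69, and the part of sampled tissue in the carrier differences was not tested.

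**Figure D5:**
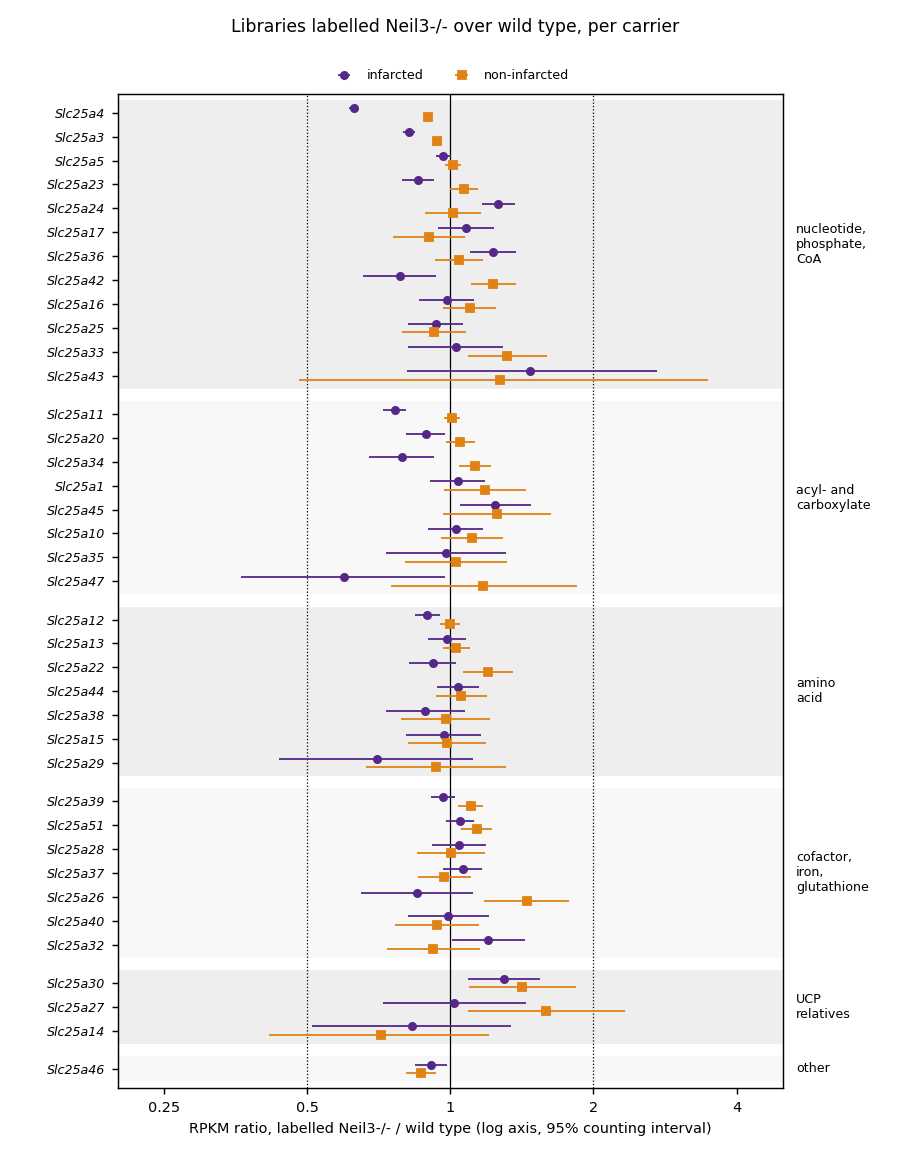
RPKM ratio (log axis) of libraries labelled Neil3-/- over wild type for 38 members, with 95% counting intervals, infarcted above non-infarcted tissue (solid line, equal levels; dotted lines, 2-fold). All points lie between 0.5 and 2, and Slc25a4, Slc25a11, Slc25a34 and Slc25a42 lie further left in infarcted than in non-infarcted tissue.

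The last comparison set the infarct ratio of the libraries labelled Neil3-/- beside that of wild type. No member's infarct ratios were 2-fold apart, while among all 12362 genes the infarct ratio was higher past this limit under the Neil3-/- label for 0.202% and lower for 0.17%. Of the 34 members with the same sign in both genotypes, 25 had a ratio further from 0 in the libraries labelled Neil3-/- (73.5%), as had 63.9% of all genes with the same sign in both. The quotient of the 2 infarct ratios had an interval below 1 for 12 of 39 members (30.8%) and above 1 for 2 (5.13%), where it lay below 1 for 16.2% and above 1 for 14% of 12345 genes with reads in all 4 libraries. These intervals come from the counting variance of the logarithm. It was 0.510 for Slc25a47 (0.271 to 0.958), 0.589 for Slc25a26 (0.423 to 0.819), 0.636 for Slc25a42 (0.518 to 0.780), 0.696 for Slc25a4 (0.679 to 0.713), 0.703 for Slc25a34 (0.591 to 0.835) and 0.757 for Slc25a11 (0.707 to 0.811). It was 1.24 for Slc25a24 (1.06 to 1.45) and 1.18 for Slc25a36 (1.01 to 1.38), the members whose interval lay above 1. For Slc25a13 it was 0.954 (0.854 to 1.07), an interval that spanned 1. With 1 library per group, such intervals cannot show for any member whether the genotypes differ or not. The cardiomyocyte markers had a median log2 difference of -0.50 in this comparison, with all 14 below 0, and the carriers one of -0.10, and the part of cardiomyocyte content was not tested.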

How the data were processed

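Libraries were made from total RNA, per the labels' protocols, and mm9 is the genome build named in the submitters' processing notes. The aligner, counter and annotation used were not given in the sources used here. Per the file headers, the deposited counts are uniquely assigned reads per gene, the deposited RPKM values scale them to gene length and library total, and the deposited coverage is a percent of gene length. RPKM recomputed from counts differed by a relative error of at most 5.11e-15. Genes not listed in a file were taken as 0 reads. Strand use is not stated, so reads of overlapping genes cannot be told apart.

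Log2 ratios of (RPKM + 1) were computed over all genes at 1 RPKM or more in a library compared, and those past 2-fold were counted. No test was run, since each group is 1 library. Ratios of RPKM carry 95% intervals from the Clopper-Pearson limits on the share of reads. Scripts used Python 3.11.15 with pandas 2.3.3 and SciPy 1.17.1, and edgeR 4.0.16 for TMM factors only, and were tested on simulated data. At the depths here, a single read over 2 kb is worth 0.0275 to 0.0350 RPKM.

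The members and lists were chosen with earlier results of these data known. Full values are given for members past 2-fold in a comparison and for the 10 with the highest mean RPKM, and others are named with their ranges or ratios. The promoter motifs were chosen after the values were seen. RefSeq promoters matched 35 of 46 members by gene identifier. Protein sequences were not used here. One member is included in the counts and medians but its own values are not reported here. Alternatives were TMM and median-of-ratios scaling, a pseudocount of 0.1 RPKM, a filter of 5 RPKM or none, and a 1.5-fold limit.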

Additional observations from a re-analysis of the deposited data

How the results depend on the processing

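No paired analysis was possible because each group has 1 library and the labels carry no replicate numbers. For the same reason no replicate could be left out. No ratio past 2-fold changed sign under any setting tried. In the infarct comparison of the libraries labelled Neil3-/-, the members' median of -0.23 became -0.38 under TMM scaling, -0.39 under median-of-ratios scaling and -0.12 with no filter. In wild type the median of -0.08 became -0.28 and -0.29 under TMM and median-of-ratios scaling. The 1 member at least 2-fold higher became 2 in the libraries labelled Neil3-/- with a pseudocount of 0.1 RPKM, and 0 in wild type under TMM and 0 under median-of-ratios scaling. At a 1.5-fold limit, 14 members were lower and 4 higher in infarcted tissue labelled Neil3-/-, where 12.4% of all genes were lower and 25% higher. In wild type 10 members were lower and 4 higher at that limit, where 9.56% of all genes were lower and 21.6% higher. At that limit 1 member was lower in infarcted tissue labelled Neil3-/- than in wild-type infarcted tissue, where 1.55% of all genes were, and 1 was lower in the difference of infarct ratios, where 1.39% of all genes were. The 5 RPKM filter kept every count within 1.5 times and every median within 0.1 of the reported value. Depth limits the least abundant members, whose intervals reach from 0.48 to 3.48 for Slc25a43 between the non-infarcted libraries.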
